A study of Mus musculus with 24 samples.

Results

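At 546 of the 20665 protein-coding genes on mouse chromosomes 1 to 19, a peak of H3K27ac lay at a gene end in lung endothelial cells of both wild-type (WT) and Dnmt3a knockout (KO) mice, while a peak of H3K4me3 lay there in KO only. They include Ssh1, Igf2r, Plekhm2, Adam23 and Traf3, 6 genes of the extracellular matrix list such as Plaur and Eln, and a set of interferon-induced genes such as Ifit1, Rsad2 and Ifitm3. A mark counted as present when its list had a peak no farther than 1000 bp from one of the annotated gene ends in mm10. H3K27ac was at an end in both genotypes at 9435 genes, of which 8606 had H3K4me3 in both, 546 in KO only, 22 in WT only and 261 in neither. The genes were thus chosen by the presence of H3K4me3 and H3K27ac peaks, so these 2 marks are described below without support drawn from them. H3K4me1, H3K27me3 and promoter sequence did not enter the choice.

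Chromatin was profiled by ACT-seq, in which a Tn5 transposase bound to an antibody tags DNA at the antibody's target, in lung endothelial cells sorted by flow cytometry. The labels give 24 samples, 3 for each of 4 marks in genotypes written ko and wt, and the design text names the gene as Dnmt3a. The sources used here do not give age, sex or the means of deletion. Yeast nuclei carrying an H2B antibody were added to every sample as a spike-in. The data analysed are 1 peak list per mark and genotype with positions and widths, so there is no spread between replicates and the depth of each sample is unknown. Differences between KO and WT are therefore differences between 2 lists, with no test, and intervals in parentheses are 95% binomial or order-statistic intervals over genes that cover counting error only.

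H3K4me3 is placed by the Set1 and MLL methyltransferases around the start sites of active and CpG-rich genes, where CXXC-domain subunits of these complexes bind unmethylated CpG. H3K27ac is added by p300 and CBP at active promoters and enhancers, and H3K4me1 is the usual mark of enhancers and of the flanks of promoters. H3K27me3 is the mark of Polycomb complex PRC2 at silent genes. Dnmt3a methylates CpG de novo, and its ADD domain binds the histone H3 tail when the lysine that carries H3K4me3 is unmethylated.

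Promoter sequences of RefSeq (GRCm38.p6, the mm10 build; 250 bases before to 50 after the start) are shown for 4 of the widest KO H3K4me3 peaks that overlapped no WT H3K4me3 peak and lay over the annotated start, and for Ptprm, a receptor tyrosine phosphatase gene with both marks in both genotypes. They are Ssh1 (chr5:113993741-113994040, minus strand), Igf2r (chr17:12769657-12769956, minus), Plekhm2 (chr4:141664097-141664396, minus), Adam23 (chr1:63445641-63445940, plus) and Ptprm (chr17:67354410-67354709, minus). Capitals mark CpG.
Ssh1: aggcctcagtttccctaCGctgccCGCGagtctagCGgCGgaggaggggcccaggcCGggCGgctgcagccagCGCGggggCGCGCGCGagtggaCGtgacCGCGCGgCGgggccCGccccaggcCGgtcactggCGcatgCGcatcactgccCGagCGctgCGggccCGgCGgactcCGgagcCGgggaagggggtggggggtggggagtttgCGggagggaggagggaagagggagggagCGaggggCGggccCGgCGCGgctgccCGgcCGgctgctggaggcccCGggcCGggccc
Igf2r: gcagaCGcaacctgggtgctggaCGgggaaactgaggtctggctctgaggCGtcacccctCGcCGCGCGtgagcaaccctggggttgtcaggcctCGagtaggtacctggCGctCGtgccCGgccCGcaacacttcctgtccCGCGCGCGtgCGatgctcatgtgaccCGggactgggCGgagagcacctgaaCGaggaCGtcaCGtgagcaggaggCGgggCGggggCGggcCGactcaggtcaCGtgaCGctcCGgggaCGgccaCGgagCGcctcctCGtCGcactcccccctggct
Plekhm2: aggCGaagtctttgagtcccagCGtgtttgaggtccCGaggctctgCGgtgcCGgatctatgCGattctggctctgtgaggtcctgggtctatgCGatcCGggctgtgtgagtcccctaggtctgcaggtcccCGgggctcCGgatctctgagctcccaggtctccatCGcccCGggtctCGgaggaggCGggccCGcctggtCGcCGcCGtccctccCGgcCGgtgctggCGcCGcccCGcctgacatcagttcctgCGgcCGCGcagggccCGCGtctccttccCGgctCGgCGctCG
Adam23: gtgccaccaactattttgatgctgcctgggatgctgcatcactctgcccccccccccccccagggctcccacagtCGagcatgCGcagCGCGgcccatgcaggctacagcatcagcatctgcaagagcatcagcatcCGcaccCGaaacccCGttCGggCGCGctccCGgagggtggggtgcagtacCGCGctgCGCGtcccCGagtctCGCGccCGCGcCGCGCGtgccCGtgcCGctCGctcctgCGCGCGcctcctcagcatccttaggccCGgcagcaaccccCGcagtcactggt
Ptprm: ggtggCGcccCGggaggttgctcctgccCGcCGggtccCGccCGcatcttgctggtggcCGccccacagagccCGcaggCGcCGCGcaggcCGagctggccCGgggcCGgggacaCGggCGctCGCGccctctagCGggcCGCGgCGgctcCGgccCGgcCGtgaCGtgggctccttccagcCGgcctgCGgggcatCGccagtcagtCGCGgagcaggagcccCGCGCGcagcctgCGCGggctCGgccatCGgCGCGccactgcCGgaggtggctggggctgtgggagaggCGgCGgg

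These promoters are rich in CpG, with 39 CpG in Ssh1, 34 in Igf2r, 32 in Plekhm2 and 31 in Adam23, beside 43 in Ptprm. Cdk6, the other comparison gene that the rule gave, held 27, fewer than these 4, and its promoter is not printed. The median of promoters at genes with H3K4me3 in both genotypes was 23.

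The interferon-induced genes show the other end of the range. Trim34a (chr7:104244207-104244506, plus) and Trim12a (chr7:104315446-104315745, minus), antiviral tripartite motif genes, and Ifitm3 (chr7:141010695-141010994, minus), whose product blocks virus entry, had the widest KO H3K4me3 peaks among the genes of that set whose promoter held the core of the interferon-stimulated response element. The core, a pair of GAAA runs with 2 bases of any kind between them, or its reverse complement, is in capitals.
Trim34a: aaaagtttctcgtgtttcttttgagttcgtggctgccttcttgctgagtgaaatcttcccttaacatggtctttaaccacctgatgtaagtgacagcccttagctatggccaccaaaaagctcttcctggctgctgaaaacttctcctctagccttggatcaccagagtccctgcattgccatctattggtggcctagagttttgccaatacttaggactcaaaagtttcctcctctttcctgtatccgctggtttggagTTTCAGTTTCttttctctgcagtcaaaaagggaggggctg
Trim12a: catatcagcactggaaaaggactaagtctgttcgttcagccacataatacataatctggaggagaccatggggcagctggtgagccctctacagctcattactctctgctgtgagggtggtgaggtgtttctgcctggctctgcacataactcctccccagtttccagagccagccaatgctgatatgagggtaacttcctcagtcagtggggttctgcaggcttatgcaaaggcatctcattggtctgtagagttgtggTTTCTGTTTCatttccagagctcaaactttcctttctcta
Ifitm3: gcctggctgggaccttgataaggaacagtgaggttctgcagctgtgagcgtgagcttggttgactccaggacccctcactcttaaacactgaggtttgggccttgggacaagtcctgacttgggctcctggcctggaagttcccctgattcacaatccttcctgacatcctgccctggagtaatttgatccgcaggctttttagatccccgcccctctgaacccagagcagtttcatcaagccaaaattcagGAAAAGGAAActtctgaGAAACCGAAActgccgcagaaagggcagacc

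Here CpG was scarce, with 3 in Trim34a, 1 in Trim12a and 5 in Ifitm3. The KO H3K4me3 peaks of Trim34a and Trim12a covered the RefSeq start, and the widest one of Ifitm3 did not. That Ifitm3 peak, of 690 bp, lay at the stop end of the gene, centred 1463 bp from the annotated start. Another KO peak of Ifitm3 lay within 1000 bp of the start.

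**Figure D1:**
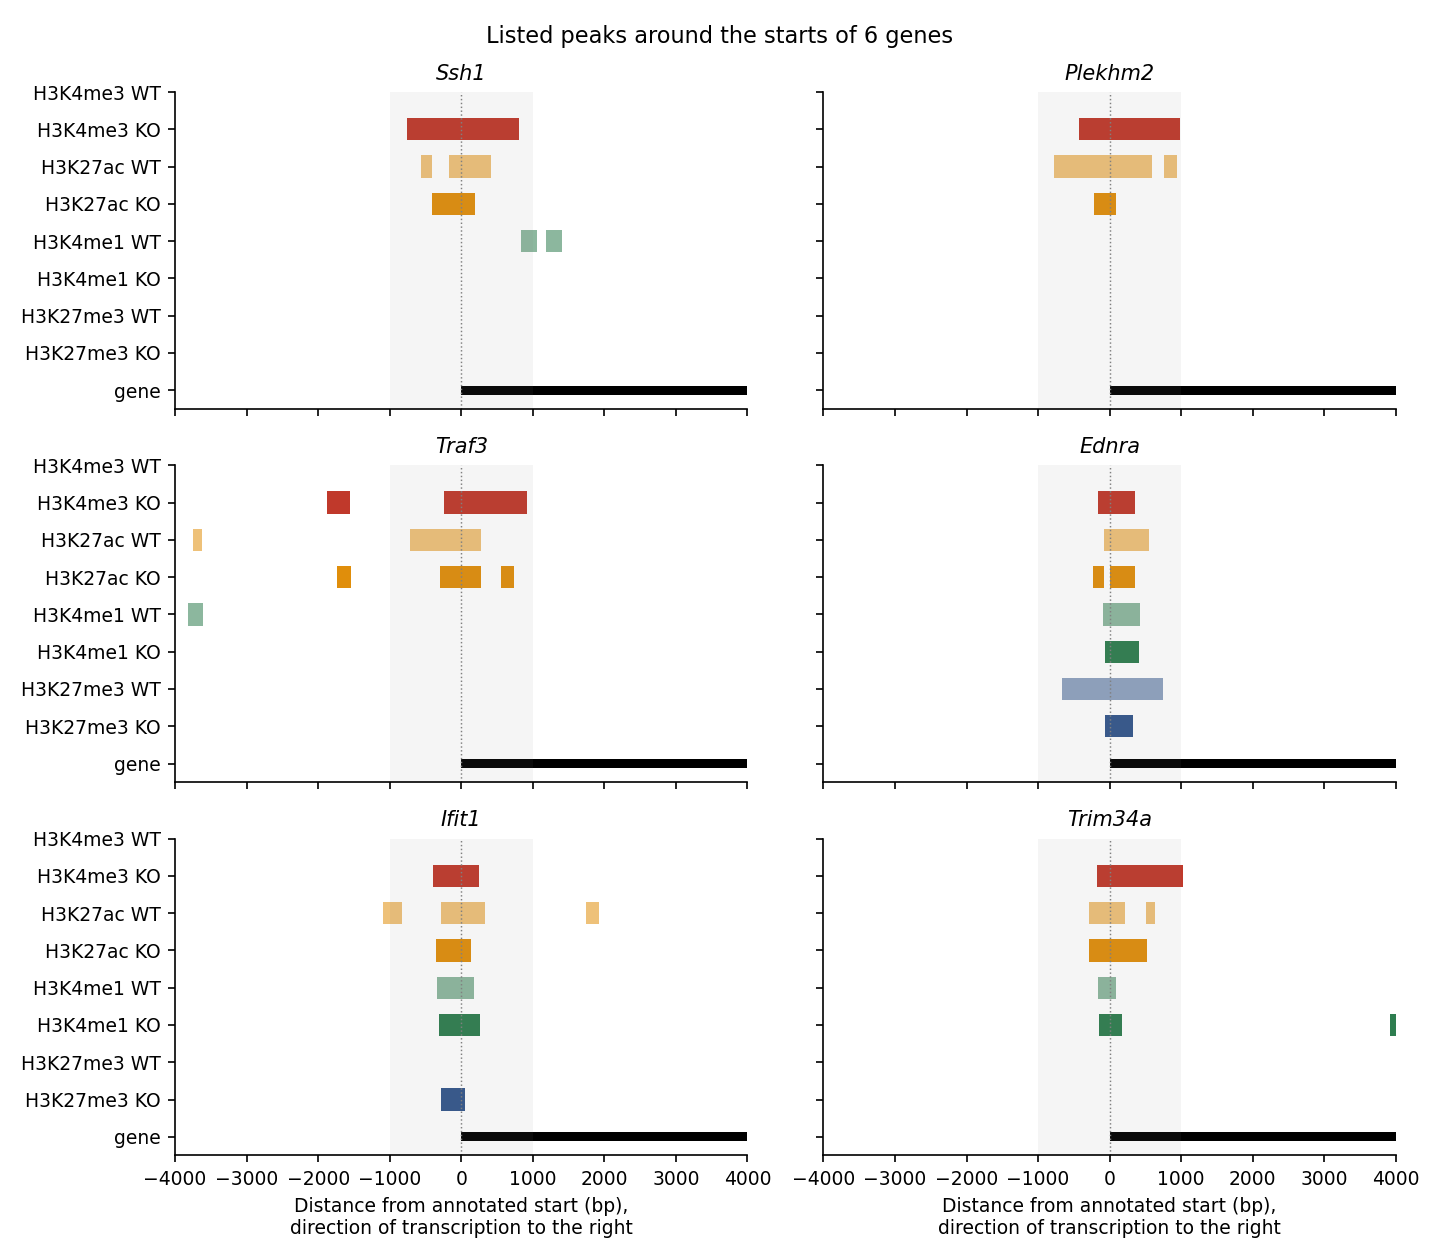
Peaks listed within 4000 bp of the annotated start of Ssh1, Plekhm2, Traf3, Ednra, Ifit1 and Trim34a, 1 row per mark and genotype; the x axis is distance from the start in bp with transcription to the right, bars span the listed peaks, the black bar is the gene and grey marks 1000 bp to each side. All 6 genes have a KO H3K4me3 bar and no WT one, H3K27ac bars in both genotypes, and H3K4me1 bars that range from none at Plekhm2 to both genotypes at Ednra, Ifit1 and Trim34a.

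Ssh1, the gene of the slingshot phosphatase that activates cofilin, had a KO H3K4me3 peak of 1567 bp across its start (113992989 to 113994555 on chromosome 5), and the nearest WT H3K4me3 peak lay 27743 bp away. H3K27ac at Ssh1 measured 587 bp in WT and 598 bp in KO. Igf2r, the imprinted gene of the mannose 6-phosphate and IGF2 receptor, had a KO H3K4me3 peak of 1563 bp with H3K27ac of 1103 bp in WT and 1372 bp in KO. At both genes the widest acetylated peak of KO was at least as wide as that of WT.

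Plekhm2, whose product links lysosomes to kinesin, had 1417 bp of H3K4me3 in KO, and its widest H3K27ac peak was 1362 bp in WT but 299 bp in KO. Adam23, a gene of a cell-surface protein of the disintegrin family, had 1285 bp of H3K4me3 with H3K27ac of 453 bp in WT and 343 bp in KO. Traf3, an adaptor of tumour necrosis factor receptors and innate immune signalling, had 1151 bp of H3K4me3 with H3K27ac of 998 bp and 574 bp, and its peak lay 125573 bp from any WT H3K4me3 peak. In these 3 genes the H3K27ac peak was wider in WT. Peaks of over 1000 bp without WT overlap were also listed at Ncoa3, a coactivator of nuclear receptors (1379 bp), Trim34a (1190 bp), Bag2, a cochaperone (1119 bp), Slc25a24, a mitochondrial carrier (1113 bp), Egflam (1096 bp) and Ninj1, a protein of plasma membrane rupture (1065 bp).

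Not every KO-only call marked a place without H3K4me3 in WT. At 36 of the 546 genes the KO peak overlapped a WT peak whose edge lay 1001 to 1359 bp from the gene end, just beyond the limit, and these KO peaks were wide, with a median of 1037 bp. They include the widest of all, at Igsf9 (2443 bp), Cdc42bpb, a kinase downstream of Cdc42 (2258 bp), Jund, a subunit of AP-1 (1921 bp), Tm6sf1 (1734 bp), Khdrbs1, an RNA-binding protein (1733 bp), Plxdc1 (1654 bp) and Polg, the mitochondrial DNA polymerase (1600 bp). For these genes the lists show a KO peak nearer to an annotated gene end than the WT peak, not a peak in KO alone. At some of them, such as Jund and Polg, the KO peak lay inside the outermost annotated ends of the gene. At Polg, Cdc42bpb, Dcaf10 and Clasp2 the peak covered the RefSeq start, which itself lies inside those ends. The other 510 genes had KO peaks with no WT overlap, a median width of 413 bp (382 to 448) and a median gap of 28272 bp (25152 to 31506) to the nearest WT H3K4me3 peak. That gap was within 5000 bp at 63 of them, and 73 had a WT H3K4me3 peak elsewhere over the gene.

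The 1000 bp limit itself can be read from the genes beside it. Just inside lay the KO peaks of Grrp1 (1000 bp from an end), Adamts4 (984 bp), Tjp3 (977 bp), Polg (971 bp) and Cdc42bpb (964 bp), and just outside those of Dab2ip (1001 bp), Btnl10 (1002 bp), Pdgfb (1008 bp), Errfi1 (1014 bp) and Pttg1 (1052 bp). On the WT side, the WT peaks of Zfp369 (1001 bp), LOC115488470 (1014 bp), Tjp3 (1015 bp), Igsf9 (1016 bp) and Clasp2 (1017 bp) lay just too far to count. Those of Cmtm3 (997 bp), Wdr1 (994 bp), Pkd1 (993 bp), Naif1 (992 bp) and Lratd2 (983 bp) counted, so those genes are not among the 546.

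The share of genes called depends on the length of the lists as well. The KO list held 22724 H3K4me3 peaks and the WT list 14984, and H3K4me3 was at an end in KO only at 6.9% of all protein-coding genes and in WT only at 0.682%. Among the 9435 genes with H3K27ac in both genotypes the shares were 5.79% and 0.233%. With the lists of each mark cut to equal numbers of the widest peaks, 14984 for H3K4me3, the KO-only count was 378, all among the 546, and the WT-only count went from 22 to 109.

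The 546 genes shared 516 different KO peaks, since 30 peaks were the widest of 2 genes. Cog1 and Slc39a11 shared a peak of 956 bp, C2cd3 and Ppme1 one of 930 bp, and Ifit1 and Ifit1bl2 one of 655 bp. Such pairs are neighbours and count once as a peak. By chromosome, the 546 made up from 2.04% (0.666 to 4.70, 5 of 245 genes) of the acetylated genes of chromosome 18 to 8.55% (5.80 to 12.1, 29 of 339) of those of chromosome 19.

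KO H3K4me3 peaks at these genes were narrow. Over all 546 the median width was 443.5 bp (404 to 484), against 913 bp (905 to 921) at the 8606 genes with H3K4me3 in both genotypes. A width of at least 500 bp was reached at 44.0% (39.7 to 48.2) of the 546 and at 92.2% (91.6 to 92.7) of the 8606. At the other extreme, 91 genes had a peak under 200 bp, and the narrowest were those of Scgb1a1 (104 bp), Irf8 (105 bp), Nr4a1 (107 bp), Ifit3 (111 bp) and S100a6 (115 bp). A second comparison was with 313 genes that carried H3K27me3 in both genotypes, H3K27ac in neither and H3K4me3 in KO only, where the median was 296 bp (266 to 337).

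**Figure D2:**
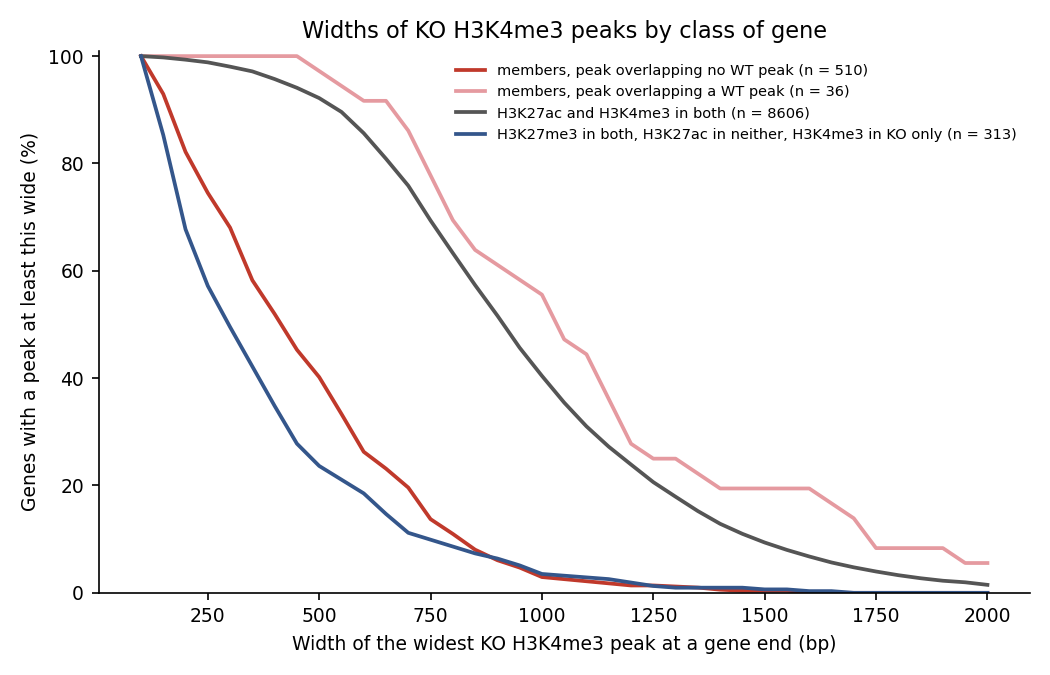
Percentage of genes (y axis) whose widest KO H3K4me3 peak at a gene end is at least as wide as the value on the x axis (bp), for the 510 and 36 KO-only genes without and with overlap of a WT peak (named members in the legend), the 8606 genes with H3K27ac and H3K4me3 in both genotypes and the 313 genes with H3K27me3 and no H3K27ac. The curve of the 510 genes lies far left of that of the 8606, while the 36 lie to its right.

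Position could be read at the 435 genes for which the RefSeq promoter table gives a strand. The KO H3K4me3 peak lay within 1000 bp of the annotated start at 391 of them, or 89.9% (86.7 to 92.6), against 98.4% (98.1 to 98.7) at genes with H3K4me3 in both genotypes and 92.1% (87.9 to 95.1) at the H3K27me3 genes. The widest KO peak covered the outermost annotated base on the start side in 57.0% (52.2 to 61.7), 85.5% (84.7 to 86.4) and 30.5% (24.8 to 36.8). That base is not always the RefSeq start of the promoter sequences, and the positions were equal at 9841 of 16457 genes. At Trim12a the peak covered the RefSeq start but not the outermost base. These shares are therefore not shares of peaks over the RefSeq start. At 44 genes the peak lay at the far end only. Kmt2d, the gene of an H3K4 methyltransferase, is one of these, and its peak of 341 bp, centred 42631 bp from its start, is also the peak of its neighbour Prkag1. Fhl3 (788 bp) and Ackr4 (387 bp), the gene of an atypical chemokine receptor, were others.

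H3K27ac lay on the KO H3K4me3 peak itself in most cases, as an overlap of at least 1 bp. Peaks of both genotypes overlapped it at 487 of the 546 genes, or 89.2% (86.3 to 91.7), WT alone at 20, KO alone at 20 and neither at 19. The share for both was 98.7% (98.4 to 98.9) at genes with H3K4me3 in both genotypes. The choice already required both marks near a gene end, so much of this overlap is built in. The H3K27ac peaks were narrower than at genes with H3K4me3 in both genotypes, with medians of 504 bp (472 to 544) in WT and 448 bp (412 to 476) in KO against 819 bp (811 to 827) and 745 bp (737 to 751). Acetylated genes with H3K4me3 in neither also had narrow peaks, of 448 bp (402 to 488) in WT and 396 bp (358 to 429) in KO. Per gene, the widest KO peak over the widest WT peak had a median ratio of 0.902 (0.865 to 0.939), beside 0.916 (0.911 to 0.921) over the 8606 genes. The widest H3K27ac peak was wider in KO at 225 genes and narrower at 321. The H3K27ac lists were unlike, with 81112 peaks in WT (median 215 bp) and 44484 in KO (median 363 bp). With equal numbers of peaks the ratio was 0.858 (0.805 to 0.900). Single genes ranged widely, from Plxdc1 (1738 bp in WT, 245 bp in KO) and Ddx6 (1356 and 205 bp) to Cdc42bpb (142 and 1770 bp). The Cdc42bpb values come from the 1000 bp limit. A WT H3K27ac peak of 1732 bp overlapped its KO H3K4me3 peak but lay beyond that limit, so it did not count.

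H3K4me1, a mark that the choice did not use, was at an end of 438 of the 546 genes in WT, 80.2% (76.6 to 83.5), and of 359 in KO, 65.8% (61.6 to 69.7). It was in both genotypes at 344 genes, in WT only at 94, in KO only at 15 and in neither at 93. The WT-only share of 17.2% (14.1 to 20.6) and the KO-only share of 2.75% (1.55 to 4.49) stood beside 14.4% and 2.29% of all genes with H3K27ac in both genotypes, so the lower H3K4me1 in KO is close to the background of the lists. Ssh1 and Igf2r had H3K4me1 in WT only, of 219 and 239 bp. Slc19a3, a thiamine transporter gene, had it in KO only, of 410 bp.

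The share with H3K4me1 in neither genotype was 17.0% (14.0 to 20.5) at the 546 genes, 8.62% (8.04 to 9.23) at genes with H3K4me3 in both and 13.0% (9.19 to 17.7) at those with H3K4me3 in neither. The first interval does not overlap the second and does overlap the last. No H3K4me1 peak was listed at the ends of Plekhm2, Adam23, Traf3 or Ncoa3, which have some of the widest KO H3K4me3 peaks. Among the 510 genes without WT overlap, H3K4me1 of neither genotype overlapped the KO H3K4me3 peak at 22.0%, 16.2%, 18.3% and 23.3% of genes with peaks under 200, 200 to 400, 400 to 600 and 600 to 900 bp. Of the 31 genes at 900 bp or more it was 45.2% (27.3 to 63.97). That interval overlaps those of the bins under 200 bp (14.0 to 31.9) and of 600 to 900 bp (15.5 to 32.7). It lies above those of 200 to 400 bp (10.8 to 23.0) and 400 to 600 bp (12.1 to 26.0). Where H3K4me1 was listed in both genotypes its peak was wider in KO, with a median KO over WT ratio of 1.12 (1.06 to 1.19), against 0.988 over all genes, 0.972 (0.964 to 0.980) at genes with H3K4me3 in both and 1.29 (1.22 to 1.41) at genes with it in neither.

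H3K27me3 was at an end of 189 of the 546 genes in WT, 34.6% (30.6 to 38.8), and of 226 in KO, 41.4% (37.2 to 45.7). It was in both genotypes at 165, in WT only at 24, in KO only at 61 and in neither at 296. The WT-only share of 4.40% (2.84 to 6.47) and the KO-only share of 11.2% (8.65 to 14.1) lay beside 5.6% and 10.4% of all genes with H3K27ac in both genotypes, which is again near the background. The order turned when each mark's lists were cut to equal length, with 38.1% in WT and 36.2% in KO. Genes with H3K4me3 in both genotypes carried H3K27me3 in both more often, at 51.0% (49.9 to 52.1) against 30.2% (26.4 to 34.3), and genes with H3K4me3 in neither did so at 14.6% (10.5 to 19.4). Egflam (710 bp in WT, 1322 bp in KO) and Cyp7b1, an oxysterol hydroxylase (640 and 1318 bp), had the mark in both lists, and Plpp2, a lipid phosphatase (739 bp), in KO only. Lists do not show whether H3K27me3 and H3K27ac lay on the same chromosomes or in the same cells.

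**Figure D3:**
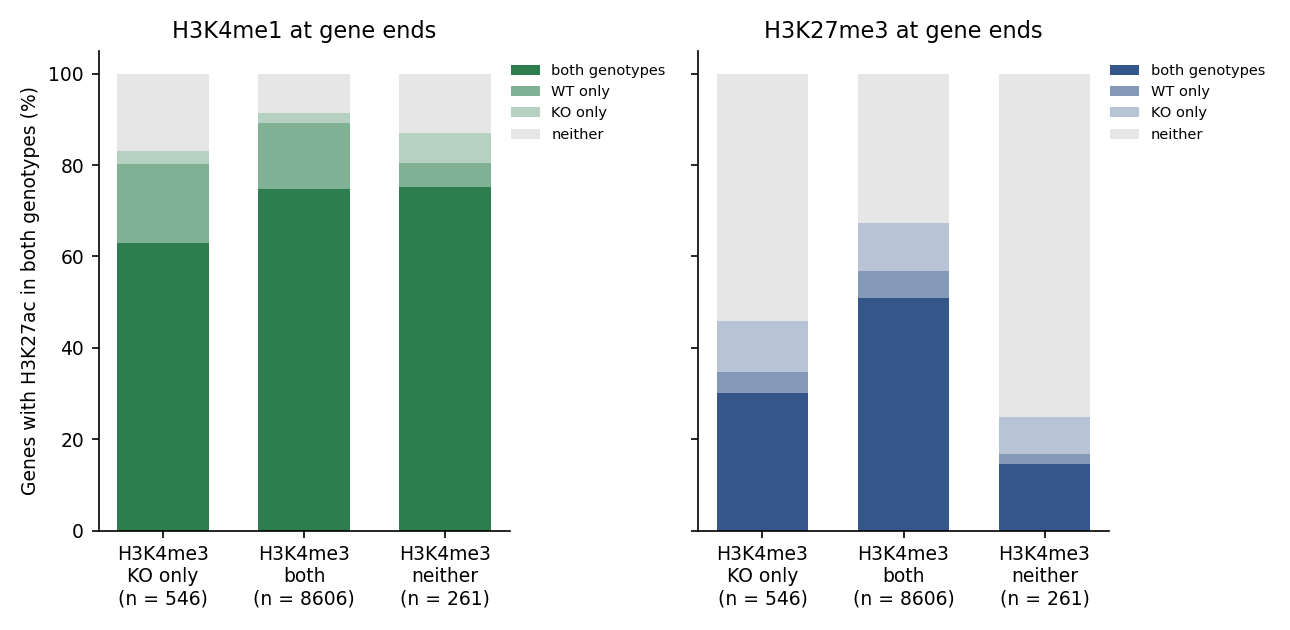
Percentage of genes with H3K4me1 (left) and H3K27me3 (right) at a gene end in both genotypes, WT only, KO only or neither, as stacked bars for genes with H3K27ac in both genotypes split by H3K4me3. The 546 KO-only genes have the largest neither share for H3K4me1 of the 3 bars, 17.0%. H3K27me3 was in both genotypes at 30.2% of them, between the 51.0% of genes with H3K4me3 in both and the 14.6% of those with it in neither. H3K27me3 in KO only was at 11.2% (8.65 to 14.1), beside 10.4% (9.80 to 11.1) and 8.05% (5.05 to 12.0), and these intervals overlap.

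Promoter sequence likewise did not enter the choice. The 435 promoters held a median of 16 CpG (15 to 17) in 300 bases, between 23 (22 to 23) at genes with H3K4me3 in both genotypes and 6 (5 to 7) at acetylated genes with H3K4me3 in neither, and the median of all 16457 promoters was 14. The spread was wide, with 59 promoters holding 0 to 4 CpG and 47 holding 30 or more. Traf3 had the most, with 59, and F2rl3, the gene of a thrombin receptor, had 0. The 313 H3K27me3 genes had promoters with a median of 22 CpG (20 to 25). Among the 510 genes without WT overlap, CpG count was higher with the width of the KO H3K4me3 peak. The median went from 10 for peaks under 200 bp (72 promoters) to 21 at 900 bp or more (26 promoters).

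**Figure D4:**
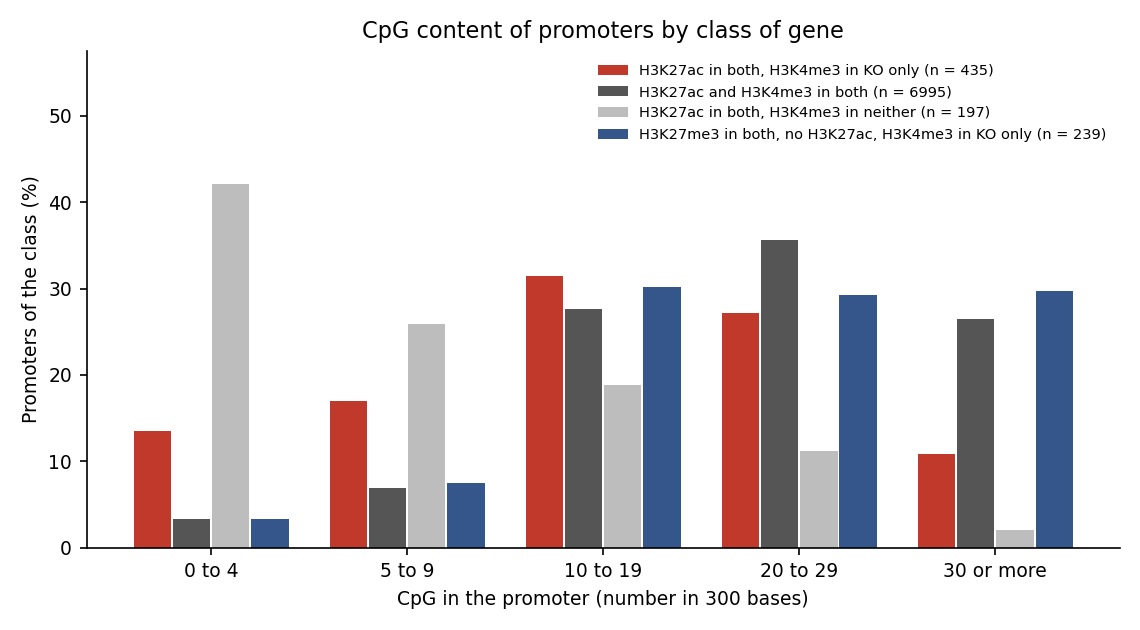
Distribution of the number of CpG in the 300-base promoter (x axis, in bins) as a percentage of each class (y axis) for 435 KO-only genes, 6995 genes with H3K4me3 in both genotypes, 197 acetylated genes with H3K4me3 in neither and 239 H3K27me3 genes. The KO-only genes sit between the H3K4me3 classes, with 13.6% of promoters at 0 to 4 CpG against 3.32% and 42.1%.

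Short motifs were searched on both strands, and motifs could overlap each other. The GC box and an ETS-type site, both with a CpG, were less frequent than at genes with H3K4me3 in both genotypes and more frequent than at genes with it in neither. The GC box GGGCGG was in 58.6% (53.8 to 63.3) of the promoters of the 546 genes, in 69.4% at genes with H3K4me3 in both, in 29.4% at those with it in neither and in 47.3% of all promoters. The ETS-type site CGGAAG was in 24.8% (20.8 to 29.2), 36.2%, 10.7% and 21.9%. The TATA box TATAAA, without CpG, was in 7.82% (5.47 to 10.8), 6.15%, 17.3% and 13.5%. The AP-1 site TGACTCA was in 5.52% (3.57 to 8.10), 2.59%, 5.58% and 4.59%. That interval lies above the share at genes with H3K4me3 in both. It includes the share at genes with it in neither and the share of all promoters. The response element core defined above was in 5.06% (3.20 to 7.56), 3.02%, 3.55% and 3.42%. A match describes the letters and is not a bound site.

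Pathway lists were read next, as the share of acetylated genes that are among the 546, beside the background of 5.79%. Over 17 lists together it was 38 of 519 genes, 7.32% (5.23 to 9.91), an interval that includes the background. Extracellular matrix and proteases held 6 of 33, 18.2% (6.98 to 35.5), the only one of the 17 lists whose interval lay above the background, with no adjustment for the number of lists. Among them were Plaur, the urokinase receptor, Adamts4, an aggrecanase, Eln, elastin, Fbln2, a fibulin, and Col18a1, the collagen that yields endostatin. The KO H3K4me3 peaks of these genes measured from 208 bp at Col18a1 to 482 bp at Plaur. H3K27ac was 625 bp in WT and 599 bp in KO at Plaur, and 267 and 377 bp at Fbln2. The KO peak of Eln lay 626 bp from a WT H3K4me3 peak, which was 1139 bp from the gene end and so near the limit. With equal numbers of peaks 3 of the 6 genes remained, 9.09% (1.92 to 24.3) of 33, beside 4.10% (378 of 9209) of all acetylated genes, so the interval then included the background.

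Regulators of Rab and Arf GTPases and of membrane traffic held 5 of 38. Beside Plekhm2 these were Iqsec1, an exchange factor for Arf proteins (858 bp), Plekhm3 (600 bp), Ehd3, an endosomal ATPase (339 bp), and Psd4, another Arf exchange factor (155 bp). None of the 5 peaks overlapped a WT peak. Guidance genes held 2 of 17, Sema3e, a semaphorin that acts through plexin D1 (748 bp), and the receptor Plxnb2 (578 bp, overlapping a WT peak beyond the limit).

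Adhesion genes held 3 of 27, and each overlapped no WT peak. Itgb3, the integrin that pairs with alpha v and alpha IIb, had a KO H3K4me3 peak of 516 bp, Itga9 one of 303 bp and Icam1, the leukocyte ligand induced on inflamed endothelium, one of 273 bp over the start. H3K27ac at Icam1 was 399 bp in WT and 419 bp in KO. Among G protein-coupled receptors and effectors, with 3 of 38, the endothelin receptor Ednra had 522 bp of H3K4me3 and H3K27me3 of 1409 bp in WT against 386 bp in KO, with H3K27ac of 639 and 344 bp. F2rl3 had 263 bp of H3K4me3 on H3K27ac of 870 and 1050 bp, and Ackr4 was the third. Ednra is thus a gene where all 4 marks were listed in KO and 3 in WT.

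Inflammation and innate signalling held 3 of 45, namely Traf3, the cytokine receptor kinase Jak3 (395 bp) and the interferon regulatory factor Irf8 (105 bp). Lipid and energy metabolism held 3 of 38, among them the desaturase Scd1 (257 bp) and the amino acid transporter Slc7a5 (202 bp). The chromatin list held 2 of 46, Arid1a, a subunit of the BAF remodelling complex (349 bp, H3K27ac of 154 and 148 bp), and Kmt2d. Transcription factors held 2 of 46, Nfatc2 (473 bp) and Nr4a1. These shares lie on both sides of the background, and each interval includes it.

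Ion channels and calcium genes held 2 of 31, the phospholipase Plcb3 (739 bp) and the cation channel Trpc6 (732 bp). Hypoxia and immediate early genes held 2 of 29, the prolyl hydroxylase Egln3 (802 bp) and Jund. The Notch list held 1 of 14, the glycosyltransferase Mfng (1134 bp, overlapping a WT peak beyond the limit). The BMP and TGF-beta list held 1 of 24, Tmem100 (877 bp, 1596 bp from a WT peak), and the Wnt list 1 of 18, Dvl2 (417 bp). None of 11 VEGF and angiopoietin genes was among the 546, with an exact upper limit of 28.5%, and none of 24 housekeeping genes, with one of 14.2%.

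Interferon-induced genes had a higher share than any of the 17 pathway lists, in a list of 144 genes that was composed after the names of the 546 had been seen, so its count is a description only. Of 98 acetylated genes of the list, 23 had H3K4me3 in KO only, 23.5% (15.5 to 33.1), 64 in both genotypes, 10 in neither and 1, Gbp5, in WT only. None of the 23 genes had a KO peak that overlapped a WT peak, and with equal numbers of peaks 17 genes remained. The genes outnumber their peaks, since Ifit1 shared its peak with Ifit1bl2 and Ifi27 shared its peak with Ifi27l2a. The interval counts these as separate genes. Among 19 acetylated genes whose symbol begins with Ifi, 9 had it in KO only, 6 in both and 4 in neither, with both of these pairs among the 9. Ifit genes of chromosome 19 differed, with H3K4me3 in both genotypes at Ifit2, in KO only at Ifit1 and Ifit3, and in neither at Ifit3b.

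The Ifit genes, whose products bind foreign RNA, lie together on chromosome 19. Ifit1 and Ifit1bl2 shared a KO peak of 655 bp on H3K27ac of 625 bp in WT and 488 bp in KO, Ifit1bl1 had 556 bp and Ifit3 111 bp. Rsad2, the gene of viperin, had 278 bp with H3K27ac of 284 and 380 bp. Ifitm3 had 690 bp (765 and 616 bp), Trim12a 713 bp (935 and 444 bp) and Trim34a 1190 bp (504 and 814 bp), with H3K27ac in WT and KO in parentheses. Across the 23 genes the KO H3K4me3 peak had a median of 376 bp and ranged from 105 to 1190 bp. H3K27ac had medians of 625 bp in WT and 505 bp in KO, and it was wider in KO at 9 of the 23.

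The sensor and effector genes of the group include Nlrc5, the activator of MHC class I genes (539 bp), Tlr9, a sensor of unmethylated CpG DNA (196 bp), Ifi208 (268 bp), Ifi213 (400 bp), Gbp10, a guanylate-binding protein (167 bp), Sp100, a nuclear body protein (301 bp), Phf11d (515 bp), Xaf1 (335 bp), Uba7, the activating enzyme for ISG15 (281 bp), Batf2 (218 bp) and Tmem140 (213 bp). Ifi27 and Ifi27l2a shared a peak of 376 bp. H3K4me1 was at 19 of the 23 genes in WT and 21 in KO, beside 80.2% and 65.8% of the 546. H3K27me3 was at 5 and 12, beside 34.6% and 41.4%, and at 5 and 10 with equal numbers of peaks. The H3K27me3 list of KO is the longer one, with 31022 peaks against 20918. The 17 promoters held a median of 2 CpG, and 11 of them, 64.7% (38.3 to 85.8), held the response element core on either strand, as the sequences of Trim34a, Trim12a and Ifitm3 show. Irf8 stood apart with 38 CpG, while the others held 0 to 7. Whether low CpG or the core sets these promoters apart from those of interferon-induced genes with H3K4me3 in both genotypes or in neither was not tested.

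**Figure D5:**
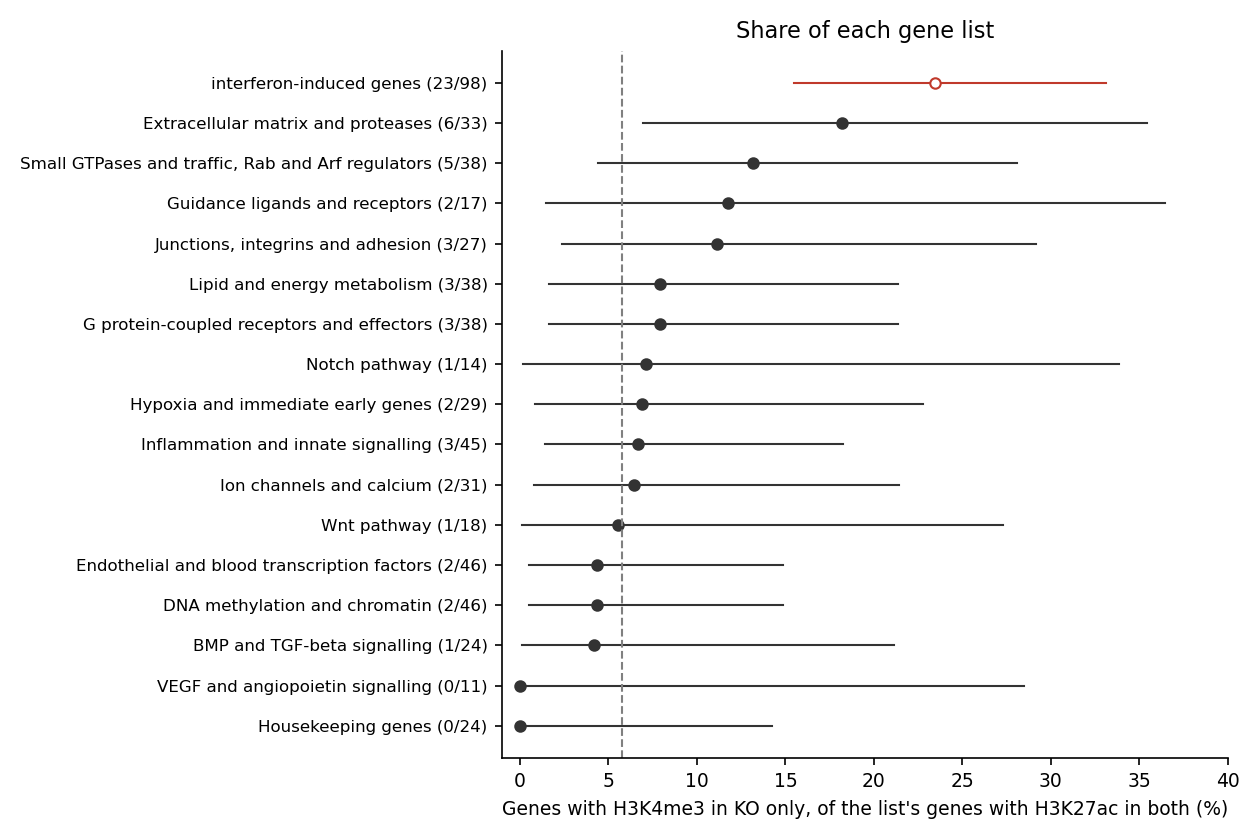
Percentage of each list's acetylated genes that have H3K4me3 in KO only (x axis), with exact 95% intervals and the counts after each name; the dashed line is the 5.79% of all acetylated genes. The open circle, interferon-induced genes at 23.5%, is the list composed after the names were seen. The extracellular matrix list is the highest of the others, at 18.2%, and 1 of the 17 lists is not shown.

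Markers of cell types were then compared with the sort. Of 25 pan-endothelial genes 21 had H3K27ac in both genotypes and 19 H3K4me3 as well in both, among them Pecam1, Cdh5, Kdr, Tek and Tie1, and none was among the 546. Markers of endothelial subtypes mostly had H3K4me3 in both genotypes as well. Of 12 acetylated general capillary genes 11 had it in both and 1, Tmem100, was among the 546, and of 6 aerocyte genes 5 had it in both and 1, Fibin (271 bp), was among the 546. Of 15 acetylated arterial genes 13 had it in both, 1, Htra1 (332 bp), in KO only and 1, Gja5, in WT only. Of 5 lymphatic genes 2 had it in both, Itga9 in KO only, Lyve1 in WT only and 1 in neither, and of 5 venous genes 4 had it in both and none was among the 546. Both mural genes that were acetylated in the 2 genotypes, Myh11, a smooth muscle myosin (190 bp), and Trpc6, were among the 546, while H3K4me3 was listed in WT at none of the 13 mural genes and in KO at 4. Of 20 lung epithelial genes 5 were acetylated and 1, the club cell gene Scgb1a1, was among the 546, of 13 mesenchymal genes 1 was acetylated, and of 19 leukocyte genes 1, with no H3K4me3 in either list at 17. Whether other cells in the sort had a part in the KO peaks of Myh11, Trpc6 and Scgb1a1 was not tested.

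The opposite state, H3K27ac in both genotypes with H3K4me3 in WT only, was found at 22 genes, 2 of which had a WT peak that overlapped a KO peak. Their WT H3K4me3 peaks ranged from 124 to 693 bp around a median of 263 bp. The widest were at Sh2b1, an adaptor of receptor kinases (693 bp), Gpn2 (617 bp), Uaca (547 bp), Rin1, a Ras effector (515 bp), and Nhlrc4 with Pigq, which share a peak of 467 bp. No WT-only peak was as wide as that of Plekhm2, which is among the widest of the much larger KO-only set of 546 genes. The median of the 510 KO-only genes without WT overlap was 413 bp.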

How the data were processed

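The authors deposited peak positions and widths in bp (a unit of the kind other), with 1 list per mark and genotype. The submitters' processing notes name MACS2 2.1.2.1, Bowtie2 2.2.6, deepTools 3.1.1, SAMtools, cutadapt 1.14 and Trim Galore 0.4.4, and the builds R64 and mm10. What each tool did, how peaks were thresholded and whether peaks were called on pooled samples is not given in the sources used here. A list made longer by more reads or a looser threshold would give more calls in that genotype.

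Peaks were placed at genes with Python 3.11.15, numpy 2.4.6 and pandas 2.3.3. Intervals came from scipy 1.17.1, as exact Clopper-Pearson intervals for shares and binomial order-statistic intervals for medians, both treating genes as independent. Figures used matplotlib 3.10.9. Of 20665 genes, 16457 matched a RefSeq promoter, which gave the strand. Planned comparisons, 6 alternatives and 2 added ones were counted without tests.

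The genes and lists were chosen with earlier results of these data known. Named genes were the 20 with the widest KO H3K4me3 peak (symbols with Gm or Rik passed over), the narrowest 5, the 5 with the widest WT H3K27ac peak, the 3 widest in each class, those at the limit, list members, and the widest WT-only genes. Genes of the interferon list, the genes with the most extreme H3K27ac ratios, and further genes with wide peaks and no WT overlap were singled out after their values were seen. Of 8 promoters that the rule gave, the 4 whose peak overlapped no WT peak are printed. Some gene ends lie away from the start that the cells used. Some genes and 1 list are not reported here.

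The code was tested on simulated data: 200 of 200 planted genes were recovered with 0 others, and on chromosome 19 the counts at 705 genes had 0 differences from an exhaustive search.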

Additional observations from a re-analysis of the deposited data

How the results depend on the processing

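The number of KO-only acetylated genes was 546 and ranged from 378 (equal numbers of the widest peaks) to 598 (gene ends within 2000 bp) over 8 alternatives, of which 2, leaving out WT overlap and keeping 1 gene per peak, were chosen after seeing the data. H3K4me1 in WT was 75.6% within 500 bp, 84.6% within 2000 bp and 75.5% with peaks of at least 200 bp, and in KO 72.9% within 2000 bp and 61.5% with peaks of at least 200 bp; it was lower in KO under every alternative run. H3K27me3 within 500 bp was 29.3% in WT and 36.7% in KO, and with lists cut to equal numbers it was 36.2% in KO, below the 38.1% of WT. The start side held 93.6% within 500 bp, and the H3K27ac width ratio was 0.858 with equal numbers. The other 53 values stayed within the intervals of the reported ones, counts within 1.5 times; the median CpG count was 15 to 17. No paired analysis was possible because each group has 1 list, and leaving out replicates was not run for that reason. Depth is unknown.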
